A study of Mus musculus with 5 samples.

Results

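P-type and vacuolar ATPases are the pumps that move ions and lipids across cell membranes at the cost of ATP. Their genes were taken from the testis expression table by gene name: Na,K-ATPase subunits (Atp1a, Atp1b), the non-gastric H,K-ATPase (Atp12a), calcium pumps (Atp2a, Atp2b, Atp2c), vacuolar ATPase subunits (Atp6), copper pumps (Atp7), phospholipid flippases (Atp8 to Atp11) and P5 ATPases (Atp13a). This gave 66 gene names with 154 transcript rows, out of 22401 gene names and 55350 rows, and the row with the highest mean signal stood for each name. Of the 66 names, 47 had a mean signal of at least 1 over both RNA libraries and are called measured; 12846 gene names were measured in all.

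The RNA came from testes of 3-month-old mice. The knockout group was Taf7l-/Y males, which lack Taf7l, an X-linked paralogue of the gene for the transcription factor TFIID subunit TAF7; the comparison group was wild-type males. Each genotype was 1 mRNA library from a pool of 6 extracts in equal amounts; the labels give 100 to 200 M reads per library. TAF7L and RNA polymerase II (Pol II) were mapped by chromatin immunoprecipitation in wild-type testis of the same age, with 1 library each and chromatin of 10 mice. No condition had a replicate, so differences are described by size and carry no test. The value after ± is the deposited standard deviation (SD) of the signal within a library, whose basis is not stated and which is no spread between animals. The signal has no unit in the table and lies on the scale of RPKM, so levels are compared between genes on the assumption that it is per length.

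P-type ATPases form a phosphorylated intermediate on each cycle. The Na,K-ATPase, an alpha subunit with a beta subunit, sets the sodium gradient, and sperm carry an alpha isoform of their own that is needed for motility in mice. V-ATPases are rotary proton pumps, with a cytosolic V1 sector that hydrolyses ATP and a V0 sector in the membrane that passes protons. They acidify lysosomes, synaptic and secretory vesicles and, in sperm, the acrosome. P4 flippases keep phosphatidylserine and phosphatidylethanolamine on the cytosolic side of membranes, mostly together with a CDC50 subunit.

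In the knockout testis the sperm isoforms of a Na,K-ATPase subunit and of a V-ATPase subunit fell. Atp1a4, Atp1b3, Atp6v1e2 and Atp8a2 were at least 2-fold lower, and 4 members, among them Atp1b2, Atp2b1 and Atp8b2, at least 2-fold higher, on a log2 scale with a pseudocount of 1 added to each signal. Such a scale makes the change of weakly expressed genes look smaller than it is. All calls at 2-fold given here, also for other gene lists, are on this scale. These 4 lower members made up 8.51% of 47 (95% Wilson interval 3.36 to 19.9, counting over genes only), beside 7.2% of all measured genes. The 4 higher members were also 8.51%, beside 7.22% of all measured genes. The counts were thus near the background in both directions. The median log2 change was 0.61 over the measured members and 0.40 over all measured genes.

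The scale of the libraries decides how many members count as higher. After the knockout library was rescaled to a median change of 0, no member was at least 2-fold higher, beside 1% of all genes. Then 7 were at least 2-fold lower, 14.9% beside 12.6% of all genes, with Atp10a, Atp6ap1l and Atp8b3 joining the 4 named above. The difference between the libraries exceeded both deposited SDs together for 27 higher members (57.4%, beside 49.6% of all genes) and 10 lower members (21.3%, beside 17.1%).

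**Figure D1:**
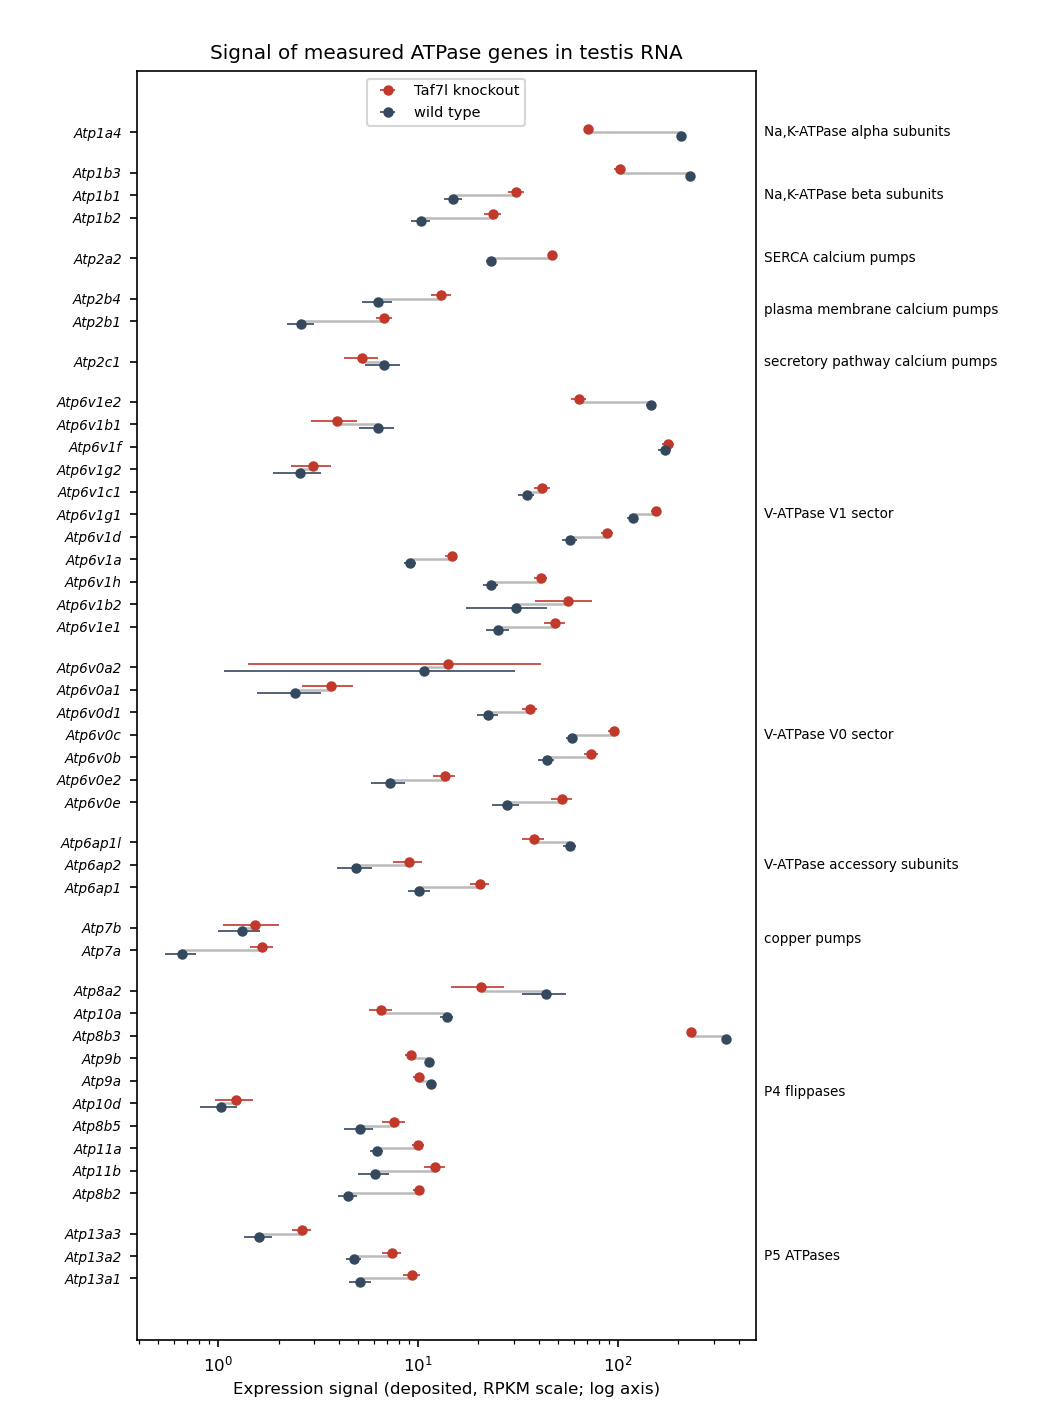
Signal of 44 measured ATPase genes in Taf7l knockout (red) and wild-type (blue) testis, 1 library each, on a log axis. Bars are the deposited SD within a library, and the lower bar is cut short for Atp6v0a2, whose SD exceeds its mean. Atp1a4, Atp1b3, Atp6v1e2 and Atp8b3 lie to the left in the knockout, and most other members to the right.

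Cell type markers also differed between the libraries, in both directions. Late spermatid markers were at least 2-fold lower for 10 of 10 genes, with a summed signal of 12117 in the knockout and 66659 in the wild type. Sertoli cell markers were at least 2-fold higher for 6 of 11, with sums of 1490 in the knockout and 711 in the wild type, and macrophage markers for 3 of 7 measured, with sums of 112 in the knockout and 47.9 in the wild type. Pachytene spermatocyte markers had 1 of 10 higher and 1 lower, with sums of 5639 in the knockout and 6610 in the wild type. Leydig cell markers had 3 of 8 higher and none lower, with sums of 1589 in the knockout and 1937 in the wild type. Most of these sums was Insl3, with 1052 in the knockout and 1686 in the wild type, while 6 of 8 had a positive log2 change. Peritubular markers had 3 of 7 higher and 1 lower, with sums of 282 in the knockout and 301 in the wild type. The lower one, Actg2, made up most of the wild-type sum, with 77.4 in the knockout and 200 in the wild type, while 6 of 7 had a positive log2 change. Spermatogonial markers had 2 of 6 measured higher. After rescaling, 4 Sertoli and 2 Leydig markers were higher, 2 Leydig and 1 peritubular markers were lower, and no macrophage, spermatogonial or peritubular marker was higher. The late spermatid and epididymal principal cell counts were the same after rescaling. Markers of epididymal principal cells were at least 2-fold higher for 7 of 8 measured, with sums of 368 in the knockout and 5.31 in the wild type, although Gpx5, Lcn5 and Lcn8 stayed at or below 0.132 in both. The part of these shifts in the ATPase values was not tested. In whole testis, fewer cells of a type and less RNA per cell cannot be told apart. Crisp1, of the epididymal list, had 75.9 in the knockout and 0.042 in the wild type. The source of the epididymal signal in the knockout library was not tested, nor was its part in the ATPase values. Taf7l itself had 2.04 ± 0.60 in the knockout and 13.2 ± 1.56 in the wild type.

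Promoter sequences are given for sperm or lower isoforms (Atp1a4, Atp1b3, Atp6v1e2 and Atp8b3), for Atp6v1e1 as the counterpart of Atp6v1e2, and for 2 V0 genes. RefSeq promoter windows of GRCm38.p6, from 250 bases before to 50 after a gene's start, were found for 43 of 66 members, of which 32 were measured. Each sequence runs 5′ to 3′ from 150 bases before to 30 after the start. Capitals mark motif letters found on either strand. A GC box was searched as GGGCGG, the site of factors of the Sp family. The core of a cAMP response element was searched as TGACG, which the full palindrome contains. An E-box of the kind found in lysosomal genes was searched as CACGTG. The CCAAT box was searched by the letters of its name. The TATA box was searched as TATAAA.
Atp1a4 (chr1:172258395-172258574, minus strand): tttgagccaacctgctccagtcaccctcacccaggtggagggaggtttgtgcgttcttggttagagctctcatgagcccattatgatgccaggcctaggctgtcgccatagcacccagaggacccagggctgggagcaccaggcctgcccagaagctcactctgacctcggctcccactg
Atp1b3 (chr9:96364402-96364581, minus strand): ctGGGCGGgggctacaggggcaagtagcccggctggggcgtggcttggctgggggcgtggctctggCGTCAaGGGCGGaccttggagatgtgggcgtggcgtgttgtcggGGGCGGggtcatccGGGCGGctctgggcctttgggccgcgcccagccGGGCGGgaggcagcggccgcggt
Atp6v1e2 (chr17:86947858-86948037, minus strand): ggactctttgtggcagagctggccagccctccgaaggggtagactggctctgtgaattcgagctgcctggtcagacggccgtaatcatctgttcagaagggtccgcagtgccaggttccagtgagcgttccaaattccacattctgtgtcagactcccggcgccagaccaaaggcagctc
Atp6v1e1 (chr6:120822669-120822848, minus strand): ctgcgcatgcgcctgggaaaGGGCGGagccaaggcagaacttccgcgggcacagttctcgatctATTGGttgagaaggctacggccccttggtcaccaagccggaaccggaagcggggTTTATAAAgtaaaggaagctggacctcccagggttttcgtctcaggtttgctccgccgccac
Atp8b3 (chr10:80539095-80539274, minus strand): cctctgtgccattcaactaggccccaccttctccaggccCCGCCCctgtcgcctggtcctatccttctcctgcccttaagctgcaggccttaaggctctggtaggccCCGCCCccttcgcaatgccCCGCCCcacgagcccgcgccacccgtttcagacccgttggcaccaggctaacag
Atp6v0b (chr4:117887300-117887479, minus strand): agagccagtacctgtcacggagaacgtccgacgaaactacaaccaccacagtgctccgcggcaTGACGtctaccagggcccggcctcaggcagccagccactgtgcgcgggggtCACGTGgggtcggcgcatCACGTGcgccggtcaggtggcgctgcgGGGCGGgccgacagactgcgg
Atp6v0d1 (chr8:105566035-105566214, minus strand): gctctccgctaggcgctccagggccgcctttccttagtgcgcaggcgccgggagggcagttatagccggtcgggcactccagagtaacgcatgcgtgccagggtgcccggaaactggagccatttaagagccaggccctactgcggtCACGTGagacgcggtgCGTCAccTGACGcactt

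No motif was common to all the printed windows of Atp1a4, Atp1b3, Atp6v1e2 and Atp8b3, and Atp8a2 had no promoter window. The windows of Atp1a4 and Atp6v1e2 held none of the motifs over all 300 bases, while that of Atp1b3 held several GC boxes and 1 TGACG, and that of Atp8b3 held GC boxes. Atp6v1e1 had a TATA box 30 bases before the start, overlapped by a match on the other strand, and was the only measured member with one, 1 of 32 (3.13%) beside 14.2% of 27025 promoters. GC boxes were found in 23 of 32 measured members (71.9%, beside 35.9%), and TGACG in 13 (40.6%, beside 21.0%). CCAAT boxes were found in 7 (21.9%, beside 37.9%). The full palindrome TGACGTCA was in none, beside 1.88% of all promoters. CACGTG was in 4 of 15 measured V-ATPase members, namely Atp6v0b, Atp6v0d1, Atp6v0e and Atp6v1a, and in Atp2b1 and Atp7a, beside 7.24% of all promoters. In Atp6v0b it occurred at 36 and at 18 bases before the start. These 6 genes had log2 changes of 0.64 to 1.11. A positive change was found in 36 of all 47 measured members, beside 9326 of 12846 measured genes. CpG dinucleotides numbered 20 per window in the median of measured members and 7 over all promoters. GC content was 59.2% in the median of measured members and 52.7% over all promoters. Measured genes are a part of all promoters in that table, and the shares were not matched on expression. A match is a description of letters and no evidence of binding.

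The Na,K-ATPase alpha gene of sperm fell in the knockout. Atp1a4, the alpha isoform of the sperm tail, whose promoter window held none of the motifs, had a signal of 70.7 ± 3.40 in the knockout and 206 ± 5.36 in the wild type, a log2 change of -1.53 (chr1:174153638-174188555, mm9). It was the member with the largest decrease and, in the wild type, lay above 96.8% of measured genes.

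Beta subunits, which fold and anchor the alpha subunit, differed in both directions. Atp1b3 had 102 ± 6.24 in the knockout and 228 ± 8.07 in the wild type, a log2 change of -1.16. Atp1b1, the beta subunit of most epithelia, had 30.9 ± 2.85 in the knockout and 14.99 ± 1.60 in the wild type, a log2 change of 1.00. The plain ratio was 2.06, and the pseudocount of 1 put it just under the call. Atp1b2, first known as an adhesion molecule of glia, had 23.5 ± 2.34 in the knockout and 10.3 ± 1.11 in the wild type, a log2 change of 1.12. Atp1b3 remained the most abundant beta gene in both libraries, with 65.1% ± 2.08 of the beta signal in the knockout and 90.0% ± 0.76 in the wild type, with errors from the deposited SDs. Such shares are taken within a library, so rescaling the library does not move them. Atp1b4 was near 0 in both. Of the FXYD regulators, small proteins that tune the Na,K-ATPase, 2 of 5 measured were at least 2-fold higher (Fxyd3 and Fxyd6) and 1 was lower (Fxyd2). After rescaling none was higher and 1 was lower. Fxyd3 had 2.214 ± 1.497 in the knockout and 0.589 ± 0.822 in the wild type, a difference within the deposited SDs. Fxyd6 had 28.2 in the knockout and 12.2 in the wild type, Fxyd2 had 4.51 in the knockout and 10.7 in the wild type, and Fxyd1, the most abundant, had 28.6 in the knockout and 19.6 in the wild type.

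**Figure D2:**
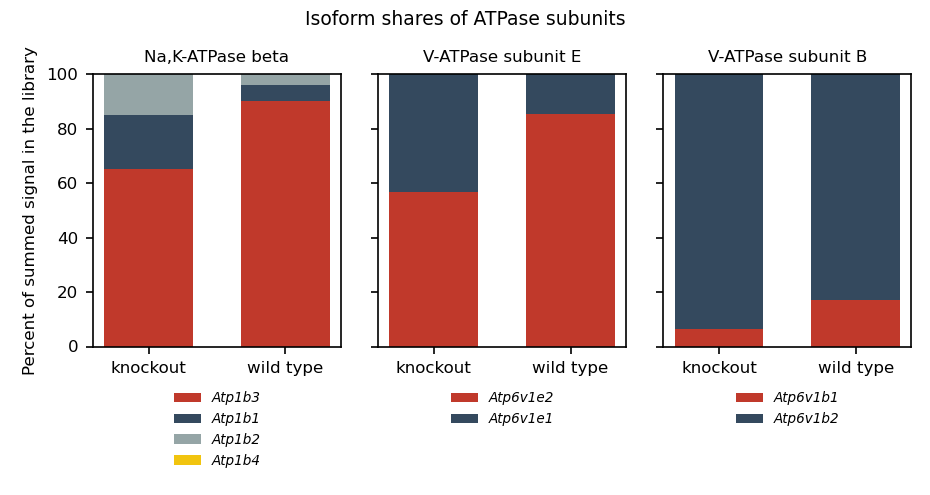
Percent of the summed signal of 3 ATPase subunits that each isoform gene contributes, in the knockout (left bar) and wild-type (right bar) library. Atp1b3 makes up 65.1% in the knockout against 90.0% in the wild type, and Atp6v1e2 56.8% in the knockout against 85.3% in the wild type.

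Measured calcium pumps had higher signals in the knockout, apart from the Golgi pump. Atp2a2, the SERCA pump of most tissues, which fills the endoplasmic reticulum, had 46.9 ± 1.72 in the knockout and 23.0 ± 1.13 in the wild type, a log2 change of 1.00. The plain ratio was 2.04, and the pseudocount put it just under the call. Its relatives Atp2a1 of fast muscle and Atp2a3 were below the minimum in both libraries. Atp2b1, the housekeeping calcium pump of the plasma membrane, had 6.77 ± 0.61 in the knockout and 2.61 ± 0.40 in the wild type, a log2 change of 1.11. Atp2b4, which is required for sperm motility in mice, had 13.1 ± 1.49 in the knockout and 6.30 ± 1.08 in the wild type, a log2 change of 0.95. It therefore did not share the decrease of Atp1a4, and all 5 of its rows were higher in the knockout, by 0.67 to 0.95 on the log2 scale. Its share of the plasma membrane calcium pump signal was 63.0% ± 3.29 in the knockout and 66.2% ± 4.90 in the wild type, with errors from the deposited SDs. The level depended on the rows. With summed rows it was 85.1% in the knockout and 86.8% in the wild type, and with mean rows 56.2% in the knockout and 61.9% in the wild type.

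The Golgi pump gene Atp2c1 depended on the row. The row of highest mean, which spans 16662 bp, had 5.26 ± 1.03 in the knockout and 6.76 ± 1.36 in the wild type, a log2 change of -0.31 that lay within the deposited SDs. The row of longest span, 109897 bp, had a log2 change of 0.12. Among 24 members with several measured rows, this was the exception in sign: in the other 23, all measured rows had the same direction. Of 6 measured SERCA regulators and calcium store genes, Casq1 was at least 2-fold lower, with 0.721 in the knockout and 3.05 in the wild type, and Calr, the most abundant, had 524 in the knockout and 330 in the wild type.

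The V1 sector of the V-ATPase held a pair of isoforms that differed in opposite directions. Atp6v1e2, the testis isoform of the stalk subunit E, described at the acrosome in mice, had 63.5 ± 5.45 in the knockout and 145 ± 7.79 in the wild type, a log2 change of -1.18 (chr17:87343448-87347227, mm9). Atp6v1e1, the E subunit of other tissues, had 48.4 ± 5.59 in the knockout and 25.1 ± 3.25 in the wild type, a log2 change of 0.92. Atp6v1e2 made up 56.8% ± 3.53 of the E signal in the knockout and 85.3% ± 1.76 in the wild type. It stayed the more abundant gene, by a ratio of 1.31 in the knockout and 5.79 in the wild type.

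The B subunit, which shares the nucleotide-binding head with subunit A, also comes in 2 isoforms. Atp6v1b1, the isoform of kidney and of clear cells of the epididymis, had 3.92 ± 1.01 in the knockout and 6.32 ± 1.25 in the wild type, a log2 change of -0.57. Atp6v1b2 had 56.0 ± 17.6 in the knockout and 30.8 ± 13.4 in the wild type in its row of highest mean, which spans only 423 bp. Its row of longest span had 15.7 in the knockout and 9.58 in the wild type. Over the rows of highest mean Atp6v1b1 made up 6.54% ± 2.49 of the B signal in the knockout and 17.0% ± 6.76 in the wild type. Over those of longest span it made up 20.0% ± 4.46 in the knockout and 39.7% ± 5.83 in the wild type. These errors are from the deposited SDs. The share was lower in the knockout with either row, but its level is set by the row. Of 6 markers of epididymal clear cells, 1 was measured: Car2, also a gene of other cells, had 22.8 in the knockout and 104 in the wild type. Other genes of these cells were near 0: Atp6v0a4 had 0.073 in the knockout and 0.098 in the wild type, Atp6v0d2 had 0.116 in the knockout and 0.024 in the wild type, and the clear cell factor gene Foxi1 had 0.257 in the knockout and 0.027 in the wild type.

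The remaining V1 subunits were at or above their wild-type signal. Atp6v1f, a rotor subunit, was the most abundant V-ATPase gene, with 178 ± 11.9 in the knockout and 171 ± 12.1 in the wild type, a difference within the deposited SDs. Atp6v1g1 of the stalk had 155 ± 8.97 in the knockout and 118 ± 7.03 in the wild type, and Atp6v1d of the rotor 88.1 ± 5.90 in the knockout and 57.4 ± 4.85 in the wild type. Atp6v1a, the catalytic subunit, had 14.7 ± 1.012 in the knockout and 9.09 ± 0.61 in the wild type, and the regulatory subunit gene Atp6v1h had 40.9 ± 3.15 in the knockout and 23.0 ± 2.002 in the wild type. Atp6v1c1 had 41.6 ± 3.92 in the knockout and 34.8 ± 3.14 in the wild type. Atp6v1g2, the G subunit of neurons, had 2.99 ± 0.69 in the knockout and 2.56 ± 0.69 in the wild type. Of 11 measured V1 genes, 9 had a positive log2 change, beside 9326 of all 12846 measured genes. Of the 11, 5 lay above the median of all genes, and 5 were positive after rescaling. The V1 median was 0.39, or -0.02 relative to all genes, and -0.10 after rescaling. Atp6v1c2 and Atp6v1g3 were below the minimum, as was a row named Atp6c2 that shares the span of Atp6v1c2.

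V0 genes lay closer together. The 7 measured V0 genes each had a positive log2 change, from 0.37 to 0.90, beside 9326 of all 12846 measured genes. Of the 7, 6 lay above the median of all genes. After rescaling Atp6v0a2 turned negative, at -0.08. None reached 2-fold. Atp6v0c, which encodes the proteolipid of the rotor ring, had 95.1 ± 5.85 in the knockout and 58.5 ± 3.87 in the wild type. A second row of that name, on chromosome 6 with a span of 1107 bp, had 64.3 in the knockout and 40.3 in the wild type, so reads may be shared between near-identical copies. Atp6v0b, a related proteolipid, had 73.0 ± 5.84 in the knockout and 43.8 ± 3.98 in the wild type, and Atp6v0d1, which joins ring and rotor, had 36.3 ± 3.21 in the knockout and 22.3 ± 2.73 in the wild type. Atp6v0e showed the largest V0 difference, with 52.6 ± 6.28 in the knockout and 27.8 ± 4.29 in the wild type, a log2 change of 0.90. Atp6v0e2, its relative, had 13.6 ± 1.69 in the knockout and 7.20 ± 1.38 in the wild type. Of the a subunits, which line the proton path, Atp6v0a1 had 3.66 ± 1.04 in the knockout and 2.41 ± 0.85 in the wild type. Atp6v0a2 had 14.2 ± 27.2 in the knockout and 10.7 ± 19.8 in the wild type, with an SD above its mean. The V0 median of 0.69 was 0.29 above that of all genes.

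Accessory subunits and partners of the V-ATPase split. Atp6ap1 and Atp6ap2, the X-linked accessory subunits, had 20.4 ± 2.20 and 8.98 ± 1.499 in the knockout, against 10.1 ± 1.28 and 4.89 ± 0.96 in the wild type. Atp6ap1l, a relative of Atp6ap1, was lower, with 38.0 ± 4.82 in the knockout and 57.3 ± 4.24 in the wild type. Of 7 measured assembly and rabconnectin-type partners, Ccdc115 was at least 2-fold higher, with 22.8 in the knockout and 10.8 in the wild type, and within 2-fold after rescaling. Rogdi, the most abundant, had 30.7 in the knockout and 52.3 in the wild type, and was at least 2-fold lower only after rescaling. Of 11 measured lysosomal genes and their regulators, Ctsd was at least 2-fold higher, with 48.4 in the knockout and 23.1 in the wild type, and within 2-fold after rescaling. Lamp1, the most abundant, had 146 in the knockout and 111 in the wild type. The median log2 change of that list was 0.72.

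P4 flippases held the most abundant member and differed in both directions. Atp8b3, a flippase of the acrosome in mouse sperm, had 233 ± 5.78 in the knockout and 348 ± 6.10 in the wild type, a log2 change of -0.58 (chr10:79982329-80001869, mm9). All 3 of its rows lay between -0.59 and -0.48. In the wild type it lay above 98.4% of measured genes. Atp8a2, a flippase of neurons and testis, had 20.7 ± 6.16 in the knockout and 43.8 ± 10.8 in the wild type, a log2 change of -1.04. Its row of longest span had 6.36 ± 0.83 in the knockout and 13.3 ± 1.03 in the wild type, and all 4 rows lay between -1.04 and -0.71. With the pseudocount, only the row of highest mean was past 2-fold. Atp10a had 6.52 ± 0.84 in the knockout and 13.9 ± 1.008 in the wild type, a log2 change of -0.98. Its plain ratio of wild type over knockout was 2.12, and the pseudocount put it just under the call.

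Other flippases were higher or close to their wild-type signal. Atp8b2 had 10.1 ± 0.68 in the knockout and 4.44 ± 0.48 in the wild type, a log2 change of 1.02, and Atp11b, Atp11a and Atp8b5 had log2 changes of 0.90, 0.61 and 0.49. Atp8b5, a testis flippase of mouse, had 7.56 ± 0.98 in the knockout and 5.09 ± 0.83 in the wild type. It thus did not share the decrease of Atp8b3, but its increase depended on the library scale. After rescaling, its log2 change was 0.07, and that of Atp8b3 was -1.07. Atp9a and Atp9b, which work without a CDC50 subunit, had log2 changes of -0.18 and -0.26. Atp10d was low, with 1.22 ± 0.26 in the knockout and 1.03 ± 0.22 in the wild type. Of 11 measured flippases, 6 had a positive change, beside 9326 of all 12846 measured genes. Of the 11, 4 lay above the median of all genes. The median over the 11 was 0.13. Its sign depended on the processing, with -0.12 after rescaling, -0.18 with the mean of rows or a minimum mean of 5, -0.03 with the longest-span row and 0.35 with summed rows. The CDC50 subunit genes Tmem30a and Tmem30c had 21.3 and 33.1 in the knockout and 16.3 and 24.9 in the wild type, neither past 2-fold. Atp8a1, Atp8b1, Atp8b4 and Atp10b were below the minimum.

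Both copper pump genes were low. Atp7a, the copper exporter mutated in Menkes disease in humans, had 1.66 ± 0.22 in the knockout and 0.657 ± 0.118 in the wild type. Its log2 change was 0.68 with the pseudocount of 1 and 1.34 without, and it was measured only through its knockout value. Atp7b, its counterpart in Wilson disease, had 1.53 ± 0.48 in the knockout and 1.31 ± 0.31 in the wild type. None of 5 copper transporters and chaperones was past 2-fold with the pseudocount of 1. The copper importer gene Slc31a1 had 9.67 in the knockout and 4.74 in the wild type, a log2 change of 0.89. Atox1, the chaperone that feeds both pumps and the most abundant, had 153 in the knockout and 95.4 in the wild type. Of the P5 ATPases, Atp13a1 of the endoplasmic reticulum had 9.30 ± 0.93 in the knockout and 5.14 ± 0.66 in the wild type. Atp13a2, a polyamine exporter of lysosomes, had 7.39 ± 0.80 in the knockout and 4.76 ± 0.41 in the wild type, and Atp13a3 had 2.63 ± 0.29 in the knockout and 1.59 ± 0.255 in the wild type. Atp13a4, Atp13a5, Atp12a, Atp2b2, Atp2b3 and Atp2c2 were below the minimum. Over all 19 members below it, signals ran up to 0.865 in the knockout and 1.23 in the wild type.

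**Figure D3:**
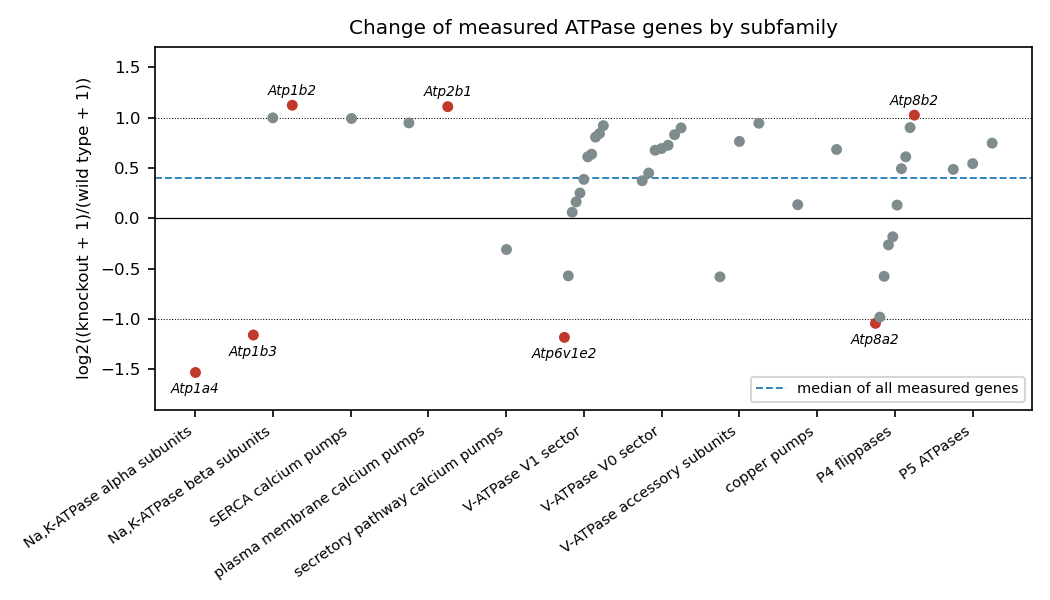
Log2 change of 44 measured ATPase genes by subfamily, knockout over wild type with a pseudocount of 1. Dotted lines mark 2-fold, red points lie past it, and the dashed line is the median of all measured genes at 0.40. V0 genes lie together between 0.37 and 0.90, while beta, V1 and flippase genes lie on both sides of 0.

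The summed signal of all 66 members was 1814 in the knockout and 1889 in the wild type. P-type members summed to 765 in the knockout and 1019 in the wild type, and V-ATPase members to 1050 in the knockout and 869 in the wild type. After rescaling the knockout sums were 544 for P-type and 746 for V-ATPase members, both below the wild-type sums. By gene, 18 of 26 measured P-type members had a positive log2 change, with a median of 0.52, and 18 of 21 measured V-ATPase members, with a median of 0.64. Most genes shared this direction: over all measured genes, 9326 of 12846 had a positive change, with a median of 0.40.

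TAF7L and Pol II at the promoters of these genes were read from the deposited scores of wild-type testis. A TAF7L promoter score above 0 was listed for 19 of 47 measured members, 40.4% (Wilson interval 27.6 to 54.7), beside 47.6% of all measured genes. A Pol II promoter score was listed for 38, 80.9% (67.5 to 89.6), beside 76.4%. All 19 members with TAF7L also had Pol II. When any row of a name could carry the score, 24 members (51.1%) had TAF7L, beside 54.7% of all genes. Each of these shares, for scores above 0, was near the background. Other settings differed more: TAF7L scores at or above the median of scored genes were found in 10.6% of members, beside 23.9% of all genes. For Pol II this share was 38.3%, beside 38.2%. With any row, Pol II scores above 0 were found in 95.7%, beside 85.8%. A proximal TAF7L score was listed for 10 members (21.3%, beside 28%), a distal score for 21 (44.7%, beside 49.7%), and no score in any class for 11 (23.4%, beside 24.2%). These classes were read from the row that stood for each name. Atp11b, among the 11, had a TAF7L promoter score of 104 in other rows.

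The 5 highest TAF7L promoter scores were spread over P5, flippase, V0 and V1 genes. Atp13a1 had 104, Atp9b 101, Atp6v0b 83.5, Atp6v1h 79.7 and Atp8b3 75.2. The median of the members with a score was 58.9, and that of all measured genes with one 71.6. A full-length row of Atp6v1b2 had a higher score of 218 than these, while the short row that stood for this gene had 0 at its promoter and the same 218 in the distal class. Equal scores can be 1 signal assigned to several rows. Atp11b likewise had 0 in the row that stood for it, and 104 in its row of longest span. The highest Pol II promoter scores were 1030 at Atp6v0b, 953 at Atp2a2, 943 at Atp9b and 932 at Atp1b3.

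Paired isoforms differed in TAF7L with no common order. Atp1a4 had a TAF7L promoter score of 36.7 and a Pol II score of 348. In the beta set, Atp1b3 had 58.9 and Atp1b1 and Atp1b2 had 0 at the promoter. In the E pair the order turned: Atp6v1e2 had a TAF7L promoter score of 0 with a Pol II score of 225, and Atp6v1e1 had 34.0 with 257. Atp6v1e2 had a distal TAF7L score of 45. The promoter scores of Atp1a4 and Atp6v1e1 were low, above 8.16% and 4.29% of the measured genes with a score. Of the 4 members at least 2-fold lower, Atp1a4 and Atp1b3 had a TAF7L promoter score, and Atp6v1e2 and Atp8a2 did not. Of the 4 higher, Atp2b1 had one.

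Changes in the knockout spanned both directions with and without a TAF7L score. The 19 members with a TAF7L promoter score had a median log2 change of 0.49, from -1.53 to 1.11, and the 19 with Pol II alone had 0.68. Over all genes the same medians were 0.43 and 0.45. The X-linked members Atp6ap1, Atp6ap2 and Atp7a had Pol II scores of 238, 393 and 351 and TAF7L promoter scores of 0. RefSeq starts need not be those behind the deposited scores, for which mm9 is named. In the 300-base RefSeq windows the median CpG number was 21 in members with a TAF7L promoter score and 20 in those without. Of 503 measured X-linked genes, 18 had a TAF7L promoter score.

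**Figure D4:**
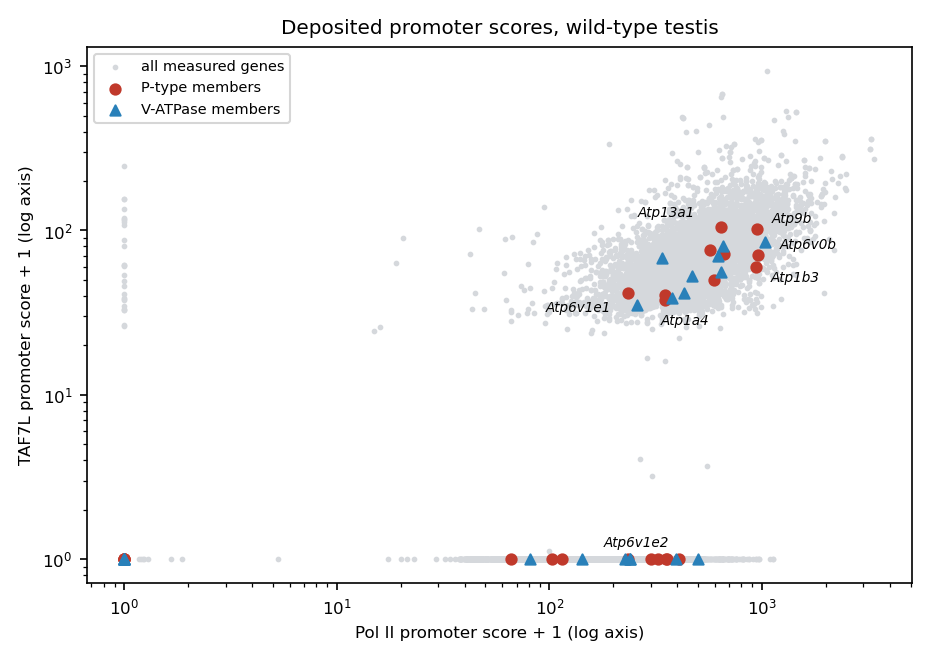
TAF7L against Pol II promoter score in wild-type testis, each plus 1 on log axes, for all 12846 measured genes (grey) and 44 members, P-type as red circles and V-ATPase as blue triangles. Members with TAF7L lie within the cloud of all genes, and Atp6v1e2 lies on the line of genes with a TAF7L score of 0.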

How the data were processed

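Testis RNA of Taf7l knockout and wild-type mice (1 pooled library each) and TAF7L, Pol II and IgG chromatin libraries of wild-type testis were used as 2 deposited tables. The IgG library has no column of its own and was not analysed here. The submitters' processing notes name Bowtie, TopHat and Cufflinks for the RNA samples, Bowtie for the chromatin samples, with mm9 as build. The definition of the scores, any peak caller and software versions were not given in the sources used here. Per the file headers, the deposited expression signal is a mean and a standard deviation per transcript, with a log2 ratio of wild type over knockout and an SD-to-mean ratio, neither used here; the deposited TAF7L and Pol II signal is a score per transcript and position class. A score of 0 was read as no assigned signal.

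Names matching a symbol or synonym in the RefSeq and gene name tables were kept, 1 row per name (highest mean), and scores were joined by transcript identifier. The change was log2((knockout + 1)/(wild type + 1)), with a minimum mean of 1 and calls at 2-fold. Shares have 95% Wilson intervals. No test across samples is possible with 1 library per genotype. Some members are not reported singly here and are left out of the figures. The other members could be named; those past 2-fold, the extremes and most abundant of each subfamily, the sperm isoforms and the highest scores are given in full. Members, lists and comparisons were chosen with earlier results of these data known. Alternatives were the pseudocount, the minimum, the row per name, the library scale and the row that carries a score. The calling steps were tested on simulated data. Strand of counting is not stated, so overlapping genes cannot be separated. Python 3.11 was used.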

Additional observations from a re-analysis of the deposited data

How the results depend on the processing

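Every called member kept its direction under each alternative that could give it a value. With a pseudocount of 0.1 the members at least 2-fold higher were 9 of 47, beside 2089 of 12846 genes. Without a pseudocount they were 10 of 47, beside 2287 of 12775 genes. The lower members were 5 with either setting, among them Atp10a, beside 1156 and 1154 genes. After rescaling 0 members and 129 genes were higher, with 7 members and 1616 genes lower, and the medians were 0.15 for members and 0 for all genes. Without a filter these medians were 0.28 and 0.10. Rescaling turned 8 small positive changes negative, and Atp2c1 turned positive in its longest-span row; Atp8a2 was no longer past 2-fold with the mean or the longest-span row. The share of members with a TAF7L promoter score at or above the median of scored genes was 10.6%, beside 23.9% of all genes. For Pol II this share was 38.3%, beside 38.2%. Members with a Pol II score were 95.7% with any row (all genes 85.8%), 59.1% without a filter (all genes 50.4%) and 93.5% with the longest-span row (all genes 83.9%), an alternative added after the data were seen.

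The isoform shares were recomputed after the data were seen. The Atp1b3 and Atp6v1e2 shares rest on genes of 1 row each, apart from Atp1b4 near 0, so these alternatives do not test them. Atp6v1b1 made up 13.3% in the knockout and 30.3% in the wild type with mean rows, and 20.0% in the knockout and 39.7% in the wild type with the longest-span row. No paired analysis was possible because each genotype had 1 library. No call was made for the 19 members below a mean of 1. The deposited SD is within a library, so differences between animals of 1 genotype cannot be judged.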
